A study of Mus musculus with 8 samples.

Results

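The 10 genes described here encode the machinery that assembles antigen receptor genes: the recombinase pair Rag1 and Rag2, the template-free DNA polymerase Dntt, and 7 core factors of classical non-homologous end joining, Prkdc, Xrcc5, Xrcc6, Dclre1c, Xrcc4, Lig4 and Nhej1. They were found on the array by gene name, or by the RefSeq transcript of the probe where the name was an older synonym, among probes that are not controls. All 10 genes were present, with 15 of the 55681 probes. A gene was tested where a probe was called well above background by the scanner software on every array of 1 or more groups, and 8 of the 10 genes met this rule, among 18790 genes tested. Rag1 and Rag2 did not.

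The arrays were 1-colour Agilent mouse arrays, 1 for each of 8 RNA samples from cultured leukaemia cells. Cells of the line '18-81', mouse pre-B leukaemia cells made with Abelson virus, received a synthetic duplex of miR-125b (2 arrays) or the control duplex miR-Neg (2 arrays), and cells of 70Z/3, a chemically induced mouse pre-B lymphoblast line, received miR-125b (2 arrays) or miR-Neg (2 arrays). Every sample was transfected with 10 nM of duplex and a lipid reagent, had its medium replaced at 8 h and gave RNA at 48 h, so that no untransfected cells are among these groups. The stated purpose was to find targets of miR-125b, and the samples came from 2 independent experiments, numbered replicate 1 and replicate 2. Each line stands for 1 established line, and 4 arrays a line limit the precision of every value.

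During V(D)J recombination, the Rag1 and Rag2 proteins cut DNA beside the variable, diversity and joining segments of immunoglobulin and T cell receptor genes and leave hairpin-sealed coding ends. Xrcc6 and Xrcc5 (Ku70 and Ku80) bind the ends and recruit the kinase encoded by Prkdc, the nuclease Artemis, encoded by Dclre1c, opens the hairpins, Dntt (terminal transferase) adds untemplated nucleotides, and Xrcc4, Lig4 and Nhej1 seal the junction. The Rag genes and Dntt are expressed in lymphoid precursors, whereas the end joining factors repair breaks in all cell types.

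Values are log2 of the processed intensity of a probe minus the array's 75th percentile, so 0 is the 75th percentile itself. Probes differ in how well they hybridise, so a level is compared between arrays and never between genes. The array brightness differed: this percentile was 713 and 561 in '18-81' with miR-125b, 699 and 573 in '18-81' with miR-Neg, 697 and 500 in 70Z/3 with miR-125b, and 509 and 335 in 70Z/3 with miR-Neg (replicates 1 and 2). Replicate 2 of 70Z/3 with miR-Neg was the dimmest array, and within each replicate of 70Z/3 the miR-125b array was brighter than the miR-Neg array. The part of brightness in the duplex differences of 70Z/3 was not tested. The pre-B label was set against 10 marker genes, of which 8 were well above background on all 4 arrays of '18-81' and on all 4 arrays of 70Z/3, including Vpreb1, Igll1 and Cd79b. The exceptions in both lines were Rag1 and Rag2. Of the markers of other cell types, 5 of 7 T cell genes in '18-81' and 4 of 7 in 70Z/3 were above background on all 4 arrays, as were 3 of 5 myeloid genes in each line, 4 of 4 plasma cell genes in '18-81' and 3 of 4 in 70Z/3, and 2 of 3 erythroid genes in '18-81' and 1 of 3 in 70Z/3. The summed level of the 7 T cell genes was 8.15 to 14.2 times the 75th percentile in '18-81' and 19.4 to 33.5 times in 70Z/3, and that of the 5 myeloid genes 7.26 to 13.8 times in '18-81' and 9.51 to 14.8 times in 70Z/3, and their part in the differences between the lines was not tested. Among the T cell genes, Cd5 had log2 values of 1.19 to 2.46 in '18-81' and 3.84 to 4.66 in 70Z/3. Cd3d, Cd3e and Cd4 overlapped between the lines, and Cd3g was well above background only in '18-81'. The T cell genes Cd3d, Cd3e, Cd4 and Cd5 were well above background on every array of both lines. The T cell genes Cd8a and Thy1 and the erythroid gene Hba-a1 were not on any array, and neither were Cd3g or Jchain on any array of 70Z/3.

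The sequences that bear on the comparisons are the transfected microRNA, the windows around the starts of the 3 lymphoid-restricted genes, and probes whose placement affects what was measured. The mature mouse miR-125b-5p of RefSeq is shown with its seed, bases 2 to 8, in capitals.
mmu-miR-125b-5p: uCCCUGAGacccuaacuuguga
The DNA word complementary to this seed, CTCAGGG, occurred in 0.44% of all probes (245 of 55681) and in 0 of the 15 member probes, which shows only that these letters are not in the probe sequences. Mature microRNA is not measured by the array, and its uptake is therefore unknown.

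Promoter windows of RefSeq (GRCm38.p6, 250 bases before to 50 after the start, 300 bases) were matched for 9 of the 10 genes. Windows of Dntt, Rag1 and Rag2 are shown because these genes share their restriction to lymphoid precursors and yet differed here in whether they were detected. Capitals mark GGGAA, the core of the motif that Ikaros proteins bind, searched as GGGAA and as its reverse complement TTCCC.
Dntt promoter, chr19:41029025-41029324, plus strand: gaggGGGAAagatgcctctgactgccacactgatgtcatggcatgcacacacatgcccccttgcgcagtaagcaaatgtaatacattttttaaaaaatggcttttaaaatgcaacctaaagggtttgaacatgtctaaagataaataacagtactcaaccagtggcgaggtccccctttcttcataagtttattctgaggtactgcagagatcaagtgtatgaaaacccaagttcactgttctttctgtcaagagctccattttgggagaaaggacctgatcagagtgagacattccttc
Rag1 promoter, chr2:101649483-101649782, minus strand: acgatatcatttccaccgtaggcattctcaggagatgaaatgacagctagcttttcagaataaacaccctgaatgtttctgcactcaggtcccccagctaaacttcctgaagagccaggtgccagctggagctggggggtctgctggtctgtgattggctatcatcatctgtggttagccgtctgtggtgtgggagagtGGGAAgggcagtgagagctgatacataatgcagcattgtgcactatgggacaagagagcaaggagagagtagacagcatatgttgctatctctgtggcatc
Rag2 promoter, chr2:101624462-101624761, plus strand: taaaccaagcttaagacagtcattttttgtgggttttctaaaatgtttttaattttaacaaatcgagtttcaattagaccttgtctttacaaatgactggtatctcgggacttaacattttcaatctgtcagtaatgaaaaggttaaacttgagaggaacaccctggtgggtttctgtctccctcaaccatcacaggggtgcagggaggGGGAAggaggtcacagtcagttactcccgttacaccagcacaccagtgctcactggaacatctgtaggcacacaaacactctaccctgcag
The core stood 246 bases before the start of Dntt, 51 before that of Rag1 and 41 before that of Rag2. It was present on either strand in 62.7% of all 32817 windows, and in a window of 8 of the 9 matched member genes, with Nhej1 the exception. The E-box CAGGTG (reverse complement CACCTG) was in 20.2% of all windows and, among the members, only in that of Rag1. These are descriptions of letters in a window and do not show binding.

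Rag1 and Rag2, the catalytic core and the cofactor of the recombinase, were not well above background in either line with either duplex. The array carried 2 probes for Rag1 (2 spots each, at chr2:101481051-101481110 and chr2:101478813-101478872 of mm9) and 2 for Rag2 (1 spot at chr2:101470723-101470782 and 10 spots at chr2:101472445-101472504 of mm9). None of the 4 probes was well above background on any of the 8 arrays. The lowest processed intensity that counted as well above background lay between 26.7 and 31.4, depending on the array.
Rag2 probe 1, plus strand: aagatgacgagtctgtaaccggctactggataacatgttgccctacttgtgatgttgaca
The intensity of Rag1 probe 1 was 7.21 and 7.67 in '18-81' with miR-125b, 10.8 and 7.90 in '18-81' with miR-Neg, 7.10 and 6.78 in 70Z/3 with miR-125b, and 9.45 and 7.74 in 70Z/3 with miR-Neg. Rag1 probe 2 stayed between 6.06 and 11.3. None of these was called well above background, and all lie under the lowest intensity so called on any array, so their differences carry no order. The single-spot Rag2 probe 1 read 26.1 and 6.41 in '18-81' with miR-125b, 20.7 and 10.8 in '18-81' with miR-Neg, 11.4 and 5.58 in 70Z/3 with miR-125b, and 19.9 and 6.40 in 70Z/3 with miR-Neg. Its value was higher in replicate 1 than in replicate 2 of all 4 groups, while Rag2 probe 2, with up to 10 spots an array, stayed between 6.87 and 9.19. No fold is given for either gene, and the arrays do not distinguish absent from low Rag RNA.

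**Figure D1:**
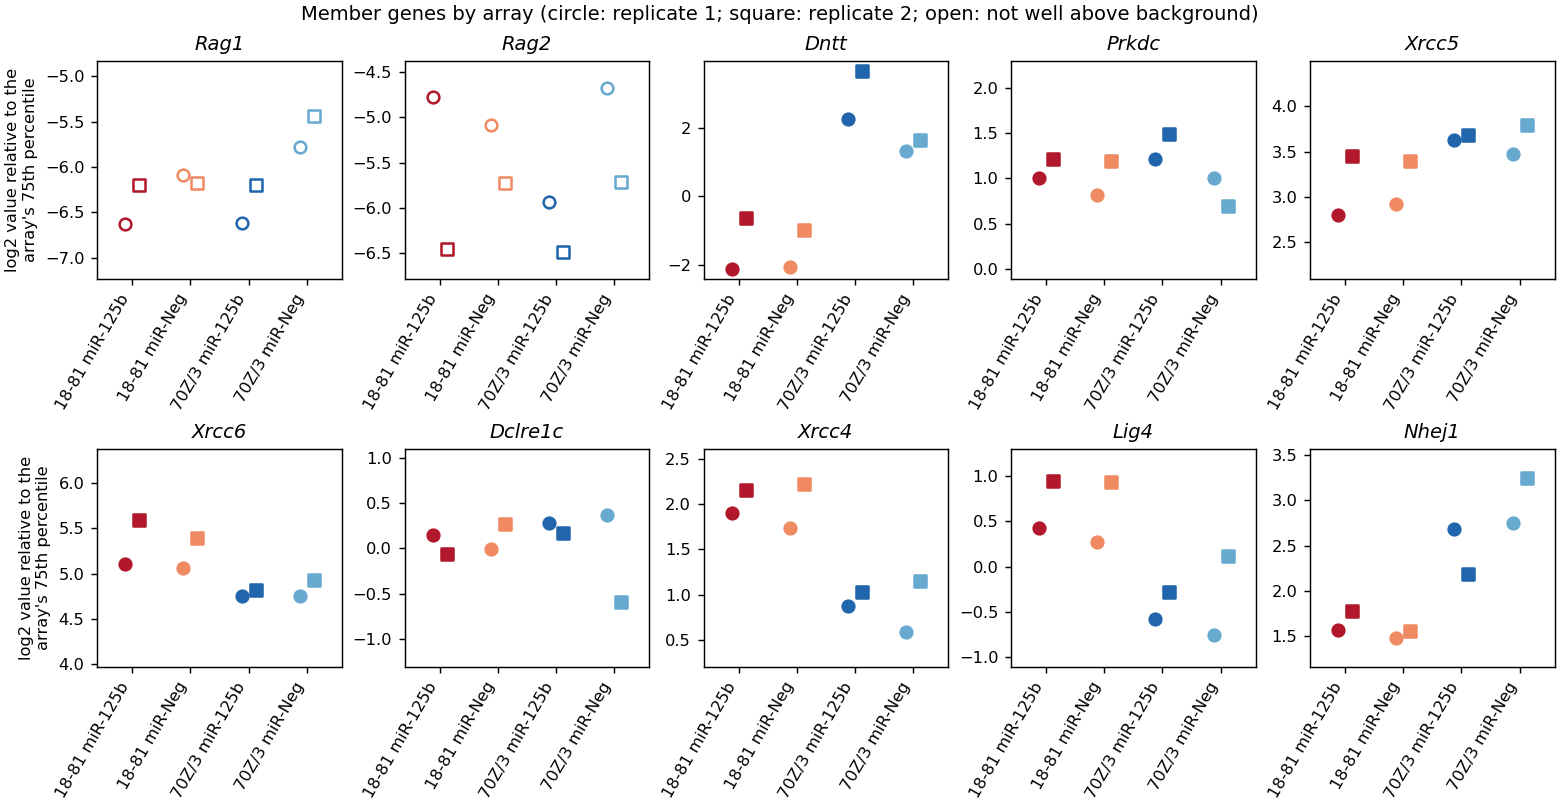
Log2 value of each of the 10 genes relative to the array's 75th percentile (vertical axes, a separate scale for each gene) on the 8 arrays, with groups of line and duplex along the horizontal axes, circles for replicate 1 and squares for replicate 2. Open symbols mark arrays on which the probe was not well above background, which holds for all 8 arrays of Rag1 and Rag2 (probe 1 of each is plotted), and for Dntt the '18-81' arrays lie from -2.12 to -0.64 and the 70Z/3 arrays from 1.33 to 3.66.

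Dntt, which writes the untemplated nucleotides of junctions, was the member with the largest difference between the lines, and it was above background on all 8 arrays. Its 1 probe lies at chr19:41133936-41133995 of mm9. The log2 values were -2.12 and -0.64 in '18-81' with miR-125b, -2.06 and -0.99 in '18-81' with miR-Neg, 2.26 and 3.66 in 70Z/3 with miR-125b, and 1.33 and 1.64 in 70Z/3 with miR-Neg. Every '18-81' array lay below every 70Z/3 array. Averaged over the duplexes, Dntt was lower in '18-81' than in 70Z/3 by a log2 difference of -3.67 ± 0.45 (standard error of the limma model, 95% interval -4.72 to -2.63, n = 4 arrays a line), which is 12.75-fold, with an adjusted p of 0.000386. The difference was -3.88 among replicate 1 arrays and -3.46 among replicate 2 arrays. In bulk RNA, fewer cells with a transcript and less of it per cell cannot be told apart.

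The Dntt probe gave processed intensities of 164 and 361 in '18-81' with miR-125b and 168 and 288 in '18-81' with miR-Neg. These were several times the lowest intensity called well above background. They were far under the 3338 and 6325 of 70Z/3 with miR-125b and the 1279 and 1041 of 70Z/3 with miR-Neg. In '18-81', replicate 2 exceeded replicate 1 with each duplex by more than the duplexes differed within a replicate. The summed level of the 7 pre-B markers that are not members was also lower in '18-81', at 319 to 372 times the 75th percentile, against 654 to 1408 times in 70Z/3. One of these markers, the surrogate light chain gene Vpreb1, had log2 values of 7.09 to 7.37 in '18-81' and 8.35 to 9.83 in 70Z/3. The part of this shift in the Dntt difference was not tested. The markers did not all share this direction: Cd79a, a signalling chain of the B cell receptor, overlapped between the lines, at 2.93 to 4.6 in '18-81' and 2.22 to 3.86 in 70Z/3.

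Of the 8 members tested, 2 were higher in '18-81' than in 70Z/3 (Xrcc4 and Lig4), 2 were lower (Dntt and Nhej1) and 4 did not pass the test at an adjusted p under 0.05. Among all 18790 genes, 31.9% passed, 15.8% higher and 16.1% lower, so calls in either direction were common between these lines and the 4 of 8 members are read against that background. With the replicates as a block, which raised the calls to 48.1% of all genes, 6 of the 8 members were called (3 higher and 3 lower), the additions being Xrcc5 and Xrcc6. The median log2 difference of the 8 members was -0.01, against 0.02 for all genes, and 4 of the 8 lay above the median of all genes.

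**Figure D2:**
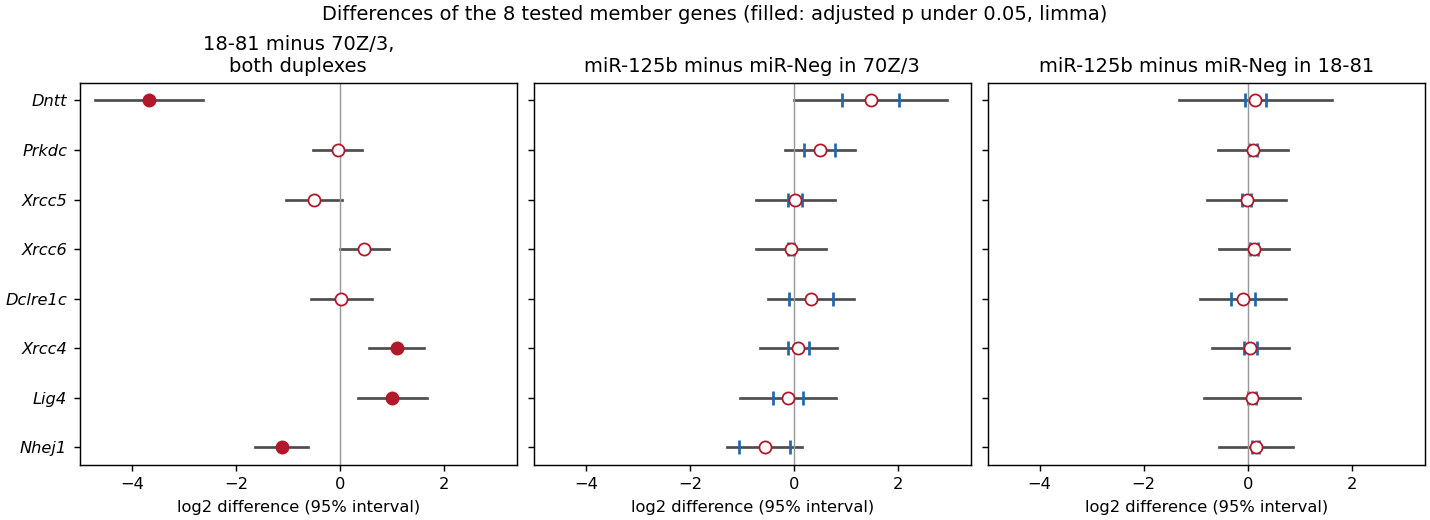
Log2 differences of the 8 tested members (rows) with 95% intervals from limma, for '18-81' minus 70Z/3 averaged over both duplexes (left), miR-125b minus miR-Neg in 70Z/3 (middle) and in '18-81' (right). Filled points passed an adjusted p of 0.05, and blue ticks in the middle and right panels give the difference within each replicate pair: Dntt, Xrcc4, Lig4 and Nhej1 are filled on the left and no point is filled in the other panels.

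The end-binding and end-processing factors did not pass the test between the lines. The Prkdc probe, which reports the catalytic subunit of DNA-dependent protein kinase, was spotted 10 times, and its 60 bases lie over 2606 bases of mm9 (chr16:15839317-15841922), so it crosses an intron.
Prkdc probe, plus strand: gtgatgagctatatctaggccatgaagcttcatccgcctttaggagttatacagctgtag
Prkdc read 1.00 and 1.22 in '18-81' with miR-125b, 0.82 and 1.19 in '18-81' with miR-Neg, 1.21 and 1.49 in 70Z/3 with miR-125b, and 1.01 and 0.70 in 70Z/3 with miR-Neg. The lines overlapped. The line difference was -0.04 ± 0.21 (95% interval -0.52 to 0.43, adjusted p 0.904), an interval that leaves out a difference of 1 log2 unit in either direction.

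Xrcc5, the larger Ku subunit, was measured by a probe that likewise lies over 307 bases of the genome (chr1:72430014-72430320 of mm9) and so crosses an intron.
Xrcc5 probe, plus strand: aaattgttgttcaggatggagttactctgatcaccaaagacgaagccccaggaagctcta
Xrcc5 read 2.81 and 3.46 in '18-81' with miR-125b, 2.92 and 3.39 in '18-81' with miR-Neg, 3.63 and 3.69 in 70Z/3 with miR-125b, and 3.47 and 3.79 in 70Z/3 with miR-Neg. Its partner Xrcc6 (probe at chr15:81870452-81870511 of mm9) read 5.11 and 5.59 in '18-81' with miR-125b, 5.06 and 5.39 in '18-81' with miR-Neg, 4.75 and 4.82 in 70Z/3 with miR-125b, and 4.75 and 4.93 in 70Z/3 with miR-Neg. The 4 arrays of '18-81' lay below those of 70Z/3 for Xrcc5 and above them for Xrcc6, by narrow margins. The log2 difference between the lines was -0.50 ± 0.23 for Xrcc5 (adjusted p 0.147) and 0.47 ± 0.21 for Xrcc6 (adjusted p 0.124). When the fit took the replicates as a block, the adjusted p became 0.0303 for Xrcc5 and 0.0257 for Xrcc6, so the call of the Ku pair depends on how the paired experiments are treated.

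Dclre1c had 4 probes, of which probes 1 and 2 match one RefSeq transcript (called a here) and probes 3 and 4 another (called b). Probe 1, which was used for the gene's test (chr2:3371015-3371074 of mm9), read 0.14 and -0.07 in '18-81' with miR-125b, -0.01 and 0.26 in '18-81' with miR-Neg, 0.28 and 0.16 in 70Z/3 with miR-125b, and 0.37 and -0.59 in 70Z/3 with miR-Neg. The lines overlapped, and the difference was 0.03 ± 0.25 (95% interval -0.56 to 0.61, adjusted p 0.953). The low value came from the dimmest array. Probe 2 behaved alike, with -0.24 and -0.54 in '18-81' with miR-125b, -0.42 and -0.50 in '18-81' with miR-Neg, -0.01 and -0.32 in 70Z/3 with miR-125b, and -0.05 and -1.61 in 70Z/3 with miR-Neg. Probe 3, of transcript b, did not show that low value: it read -1.17 and -1.59 in '18-81' with miR-125b, -1.21 and -1.56 in '18-81' with miR-Neg, -1.57 and -1.62 in 70Z/3 with miR-125b, and -1.26 and -1.22 in 70Z/3 with miR-Neg. Probe 4 was well above background on 2 of the 8 arrays, both of them replicate 1 with miR-125b, and was not tested.

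**Figure D3:**
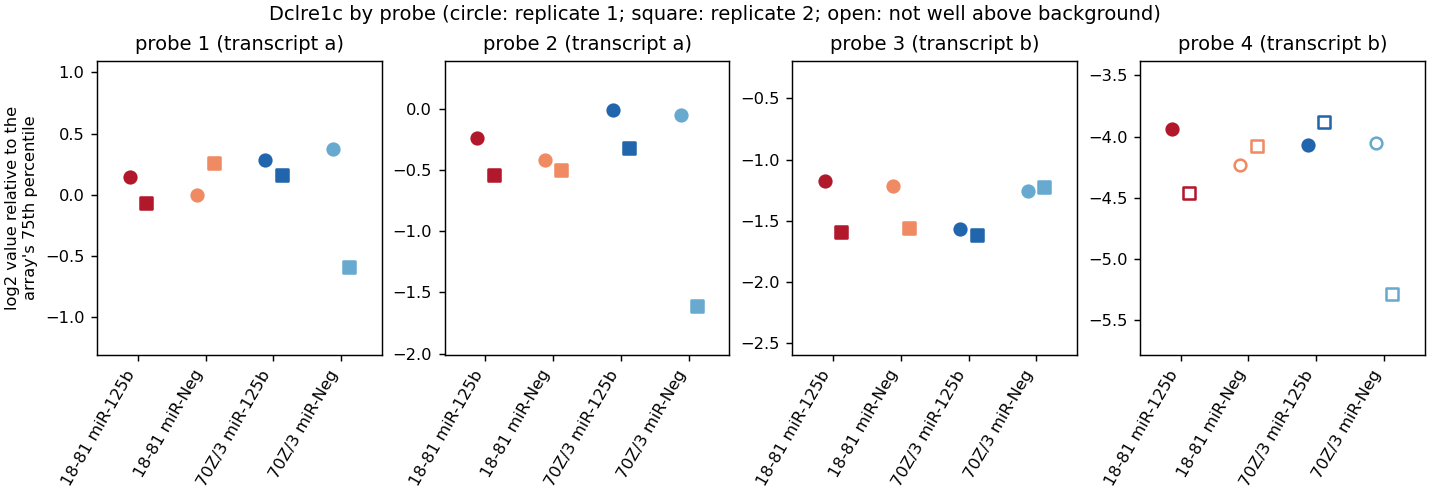
Log2 value relative to the array's 75th percentile (vertical axes, each of the same span) of the 4 Dclre1c probes on the 8 arrays, by group of line and duplex, with circles for replicate 1 and squares for replicate 2. On replicate 2 of 70Z/3 with miR-Neg, probes 1 and 2 read -0.59 and -1.61, below their other 7 arrays, and probe 3 reads -1.22; open symbols, most of probe 4, were not well above background.

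The ligation factors differed between the lines in opposite directions. Xrcc4, the scaffold that stabilises the ligase (probe at chr13:89988731-89988790 of mm9), read 1.90 and 2.16 in '18-81' with miR-125b, 1.73 and 2.22 in '18-81' with miR-Neg, 0.88 and 1.03 in 70Z/3 with miR-125b, and 0.59 and 1.15 in 70Z/3 with miR-Neg. All '18-81' arrays exceeded all 70Z/3 arrays. Xrcc4 was higher in '18-81' by 1.09 ± 0.23 on the log2 scale (2.13-fold, adjusted p 0.00702), with 1.09 and 1.10 in replicates 1 and 2, and kept an adjusted p under 0.05 whichever single array was left out.

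Lig4, the ligase itself (probe at chr8:9970290-9970349 of mm9), read 0.42 and 0.94 in '18-81' with miR-125b, 0.27 and 0.93 in '18-81' with miR-Neg, -0.58 and -0.28 in 70Z/3 with miR-125b, and -0.75 and 0.12 in 70Z/3 with miR-Neg. The lines did not overlap, although the lowest '18-81' array, at 0.27, stood close to the highest 70Z/3 array, at 0.12. Lig4 was higher in '18-81' by 1.01 ± 0.28 (2.02-fold, adjusted p 0.0274), with 1.01 in each replicate. This call was lost without replicate 1 of 70Z/3 with miR-Neg (0.79, adjusted p 0.0698), without replicate 1 (0.94, 0.0971) or replicate 2 (1.09, 0.0614) of 70Z/3 with miR-125b, without replicate 2 of '18-81' with miR-Neg (0.85, 0.0955) and without replicate 2 of '18-81' with miR-125b (0.88, 0.0815). With the replicate block the adjusted p was 0.00193.

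Nhej1 (also called XLF or Cernunnos), which aligns ends beside Xrcc4, was lower in '18-81', unlike Xrcc4 and Lig4. Its probe (chr1:75014076-75014135 of mm9) read 1.57 and 1.77 in '18-81' with miR-125b, 1.48 and 1.56 in '18-81' with miR-Neg, 2.68 and 2.19 in 70Z/3 with miR-125b, and 2.74 and 3.24 in 70Z/3 with miR-Neg. The lines did not overlap. The log2 difference was -1.12 ± 0.22 (2.17-fold lower in '18-81', adjusted p 0.00528), with -1.19 and -1.05 in replicates 1 and 2. It was -0.76 among miR-125b arrays alone (adjusted p 0.131) and -1.47 among miR-Neg arrays alone (adjusted p 0.0107).

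The comparison that the transfection was made for, miR-125b against miR-Neg, called no member and no other gene in either line, on average over both lines, or as a difference between the lines (limma, adjusted p under 0.05, 0% of 18790 genes). At an unadjusted p under 0.05 there were 1110 genes in 70Z/3, 231 in '18-81', 505 (2.69%) on average and 617 (3.28%) for the difference between the lines. In 70Z/3, Dntt was the only member among the 5.91% of genes at that level, and in '18-81', where 1.23% were, no member was. The median log2 difference of all genes was itself -0.13 in 70Z/3 and 0.03 in '18-81', against -0.01 and 0.02 after quantile normalization.

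In 70Z/3, Dntt with miR-125b was above Dntt with miR-Neg in both replicates, at 2.26 against 1.33 in replicate 1 and 3.66 against 1.64 in replicate 2. The difference was 1.48 ± 0.64 on the log2 scale (2.79-fold, 95% interval 0.00 to 2.96, unadjusted p 0.0495, adjusted p 0.77), or 1.61 above the median of all genes. The replicates gave 0.93 and 2.03, and Dntt ranked 204 of 18790 genes from the highest difference, while 1.75% of the genes had a difference of that size or more in either direction. Without replicate 2 of 70Z/3 with miR-125b it was 0.78, and without replicate 1 of that group 2.18. The summed pre-B markers were 654 and 749 with miR-125b in 70Z/3, against 801 and 1408 with miR-Neg, and their part in the Dntt difference was not tested. The replicate block lowered the standard error to 0.31 and the adjusted p to 0.198, still short of the threshold. In '18-81' the same difference was 0.15 ± 0.64 (adjusted p 1), with -0.06 and 0.35 in the replicates, and the difference between the 2 effects, '18-81' minus 70Z/3, was -1.33 ± 0.90 (adjusted p 0.933). The Dntt response was not shown to differ between the lines.

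**Figure D4:**
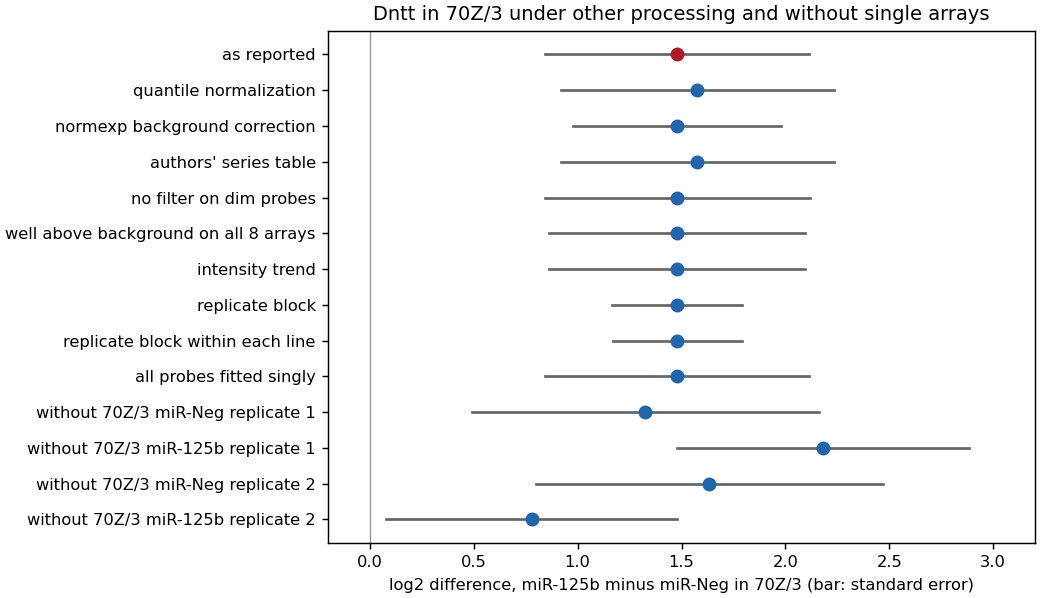
Log2 difference of Dntt between miR-125b and miR-Neg in 70Z/3 (horizontal axis, with standard errors as bars) as reported (red, 1.48) and under each alternative that bears on it (blue), among them the removal of each 70Z/3 array. All values are above 0, and they range from 0.78 without replicate 2 of the miR-125b arrays to 2.18 without replicate 1 of the miR-125b arrays.

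Over the 8 arrays, after each line's mean was taken off, the genes whose values ran closest to those of Dntt were Hsd17b7 (Pearson r 0.993), Maff (0.987) and Mtdh (0.985). These correlations were the highest of 18790 over arrays that share slide and experiments, and are given as a description.

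The other members differed by less between duplexes in 70Z/3. Prkdc, the next highest, was 0.50 ± 0.29 above miR-Neg (adjusted p 0.77), with 0.20 and 0.80 in the replicates. Nhej1 was at -0.56 ± 0.31 (adjusted p 0.77), with -0.06 and -1.06. Both differences were larger in replicate 2, in which the miR-Neg array was the dimmest.

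Dclre1c was at 0.33 ± 0.36 in 70Z/3 on probe 1, at 0.66 ± 0.48 on probe 2 and at -0.35 ± 0.29 on probe 3, so the probes of transcript a and b did not share a sign, and without the dimmest array the value of probe 1 was -0.15. Xrcc4 was at 0.09 ± 0.32, Xrcc5 at 0.03 ± 0.33, Xrcc6 at -0.05 ± 0.29 (0.17 after quantile normalization) and Lig4 at -0.12 ± 0.40, with adjusted p values from 0.933 to 0.98. The 95% intervals of these 4 genes reached 0.62 log2 units or more to each side, so differences of that size are not excluded. These intervals are not adjusted for the number of genes tested and do not set a detectable size. No difference in 70Z/3 passed the adjusted test, that of Dntt at 1.48 included. The median of the 8 members was 0.06 and 7 of them lay above the all-gene median of -0.13.

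In '18-81', the 8 members ranged from -0.09 (Dclre1c) to 0.15 (Nhej1), all with an adjusted p of 1. The standard errors, 0.29 to 0.64, were larger than any of these differences. The median of the members was 0.09, against 0.03 for all genes, and 6 of 8 lay above the median of all genes. Nhej1 with miR-125b lay above miR-Neg in both replicates of '18-81' (0.09 and 0.22) and below it in both replicates of 70Z/3.

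Genes around this machinery were read from 4 lists. Among 17 RAG partners and regulators of RAG expression, 16 were tested (all but Foxo3), and between the lines 4 were higher in '18-81', 1 was lower and 11 did not pass, with a median of 0.01 against 0.02 for all genes. The calls were 31.2% of the list, close to the 31.9% of all genes. With the replicate block 5 of the 16 were called (4 higher and 1 lower), against 48.1% of all genes. Irf8, an interferon regulatory factor of B-lineage cells, was at 7.41 and 7.30 in '18-81' with miR-125b, 7.55 and 7.39 in '18-81' with miR-Neg, 5.19 and 5.40 in 70Z/3 with miR-125b, and 4.84 and 5.01 in 70Z/3 with miR-Neg. It was higher in '18-81' by 2.30 ± 0.18 (adjusted p 3e-05). Foxo1, which drives Rag transcription in B-cell precursors, was higher by 0.76 ± 0.18 (adjusted p 0.0139), and its other probe gave 1.18 ± 0.20. Its call was lost without replicate 1 or 2 of 70Z/3 with miR-125b, or replicate 2 of '18-81' with miR-Neg, with adjusted p values up to 0.065. Foxo1 was well above background on arrays on which the Rag genes were not.

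Irf4, which acts with Irf8 at the pre-B stage, was lower in '18-81' (-0.71 ± 0.22, adjusted p 0.0436), and Gfi1, a repressor, was higher (0.92 ± 0.28, adjusted p 0.0406). For both genes the lines overlapped. Irf4 differed by -0.16 among miR-125b arrays (adjusted p 0.785) and by -1.26 among miR-Neg arrays (adjusted p 0.024). Gfi1 differed by 1.55 among miR-125b arrays (adjusted p 0.0273) and by 0.28 among miR-Neg arrays (adjusted p 0.69). The test of the difference between the duplexes did not pass for either gene (adjusted p 0.933). The Irf4 call was lost without any 1 of the 8 arrays (adjusted p up to 0.169), and the Gfi1 call without any 1 of the arrays other than replicate 1 of '18-81' with either duplex (up to 0.145). Pax5, chosen after its values were seen, was the remaining call (0.79 ± 0.25, adjusted p 0.0417). Its other probe gave the same difference with a larger standard error of 0.41 and was not called (adjusted p 0.19), and the call was lost without any 1 array other than replicate 1 of 70Z/3 with miR-Neg (up to 0.152). With miR-125b in 70Z/3, Irf4 read 2.08 and 1.55, against 2.92 and 2.82 with miR-Neg, a difference of -1.06 ± 0.32. Gfi1 read 0.92 and 0.35 with miR-125b, against 1.91 and 1.80 with miR-Neg, a difference of -1.22 ± 0.40. Neither difference passed in limma (adjusted p 0.753 for Irf4 and 0.754 for Gfi1). Both genes were named for their small p in the miR-125b comparison averaged over both lines.

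Of 20 end joining accessory and break response genes, all were tested, and 3 were higher in '18-81', 2 were lower and 15 did not pass, with a median of 0.02. These are 25% of the list, against 31.9% of all genes, and with the replicate block 10 of the 20 were called, against 48.1% of all genes. Polm, a close relative of Dntt that fills gaps during end joining, differed the other way from Dntt. It read 1.70 and 1.14 in '18-81' with miR-125b, 1.61 and 1.55 in '18-81' with miR-Neg, -1.54 and -1.86 in 70Z/3 with miR-125b, and -0.29 and -1.03 in 70Z/3 with miR-Neg. Polm was higher in '18-81' by 2.68 ± 0.25 (adjusted p 6.9e-05), and its other probe gave 3.50 ± 0.48.

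In 70Z/3, Polm was at -1.04 ± 0.35 with miR-125b relative to miR-Neg (adjusted p 0.76), and on average over both lines at -0.60 ± 0.25 (unadjusted p 0.0423, adjusted p 1). Poll, another polymerase of this family, added here for comparison, did not pass between the lines (-0.47 ± 0.19, adjusted p 0.096). Xrcc1, a scaffold of single-strand break repair, was higher in '18-81' (1.32 ± 0.19, adjusted p 0.000919). Tdp2, which removes topoisomerase adducts from ends, did not pass (0.58 ± 0.29, adjusted p 0.177). The other calls, named after their values were seen, were H2ax, the break-marking histone variant, which was higher in '18-81' (1.69 ± 0.34), and Cyren, a regulator of end joining (-1.34 ± 0.20), and Aptx, which repairs abortive ligation ends (-0.74 ± 0.23), which were lower. The lines overlapped for Aptx, and its call was lost without any 1 array other than replicate 1 of '18-81' with miR-125b or replicate 2 of 70Z/3 with miR-Neg (adjusted p up to 0.13).

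Among 7 alternative end joining genes, all tested, Rbbp8, the resection factor CtIP, was higher in '18-81' (0.80 ± 0.22, adjusted p 0.0243) and 6 did not pass, with a median of 0.08. The 1 call is 14.3% of the list, against 31.9% of all genes. The replicate block gave 4 of the 7, against 48.1% of all genes. The Rbbp8 call was lost without either replicate 2 array of '18-81', without either miR-125b array of 70Z/3 and without replicate 2 of 70Z/3 with miR-Neg (adjusted p up to 0.0953). Parp2, a break sensor, was at 0.42 ± 0.20 between the lines (adjusted p 0.16) and Lig1, the replicative ligase, at 0.08 ± 0.18 (adjusted p 0.78). Fen1, the flap nuclease, read 4.96 and 5.33 with miR-125b in 70Z/3, against 6.03 and 6.95 with miR-Neg, a difference of -1.35 ± 0.43 that did not pass (adjusted p 0.754).

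Of 12 homologous recombination genes, 11 were tested (all but Dmc1), 2 were higher in '18-81', none was lower and 9 did not pass, with a median of 0.28. The calls are 18.2% of the list, against 31.9% of all genes. The replicate block gave 7 of the 11 (4 higher and 3 lower), against 48.1% of all genes. Rad52, which anneals strands, was higher by 1.23 ± 0.20 (adjusted p 0.00178) and Brca2, which acts at resected breaks, by 0.80 ± 0.24 (adjusted p 0.034). The Brca2 call was lost without any 1 array other than replicate 1 of either line with miR-Neg (adjusted p up to 0.122). Irf8, Polm, Cyren, H2ax, Xrcc1 and Rad52 kept their calls whichever single array was left out. Bard1, the partner of Brca1, was at -0.44 ± 0.19 (adjusted p 0.117). No gene of any of the 4 lists passed the test between miR-125b and miR-Neg in limma. In 70Z/3, 5.91% of all genes reached an unadjusted p under 0.05. At that level there were 3 of 16 RAG partners and regulators and 1 of 20 accessory genes. Among alternative end joining genes there was 1 of 7, and among homologous recombination genes 0 of 11.

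**Figure D5:**
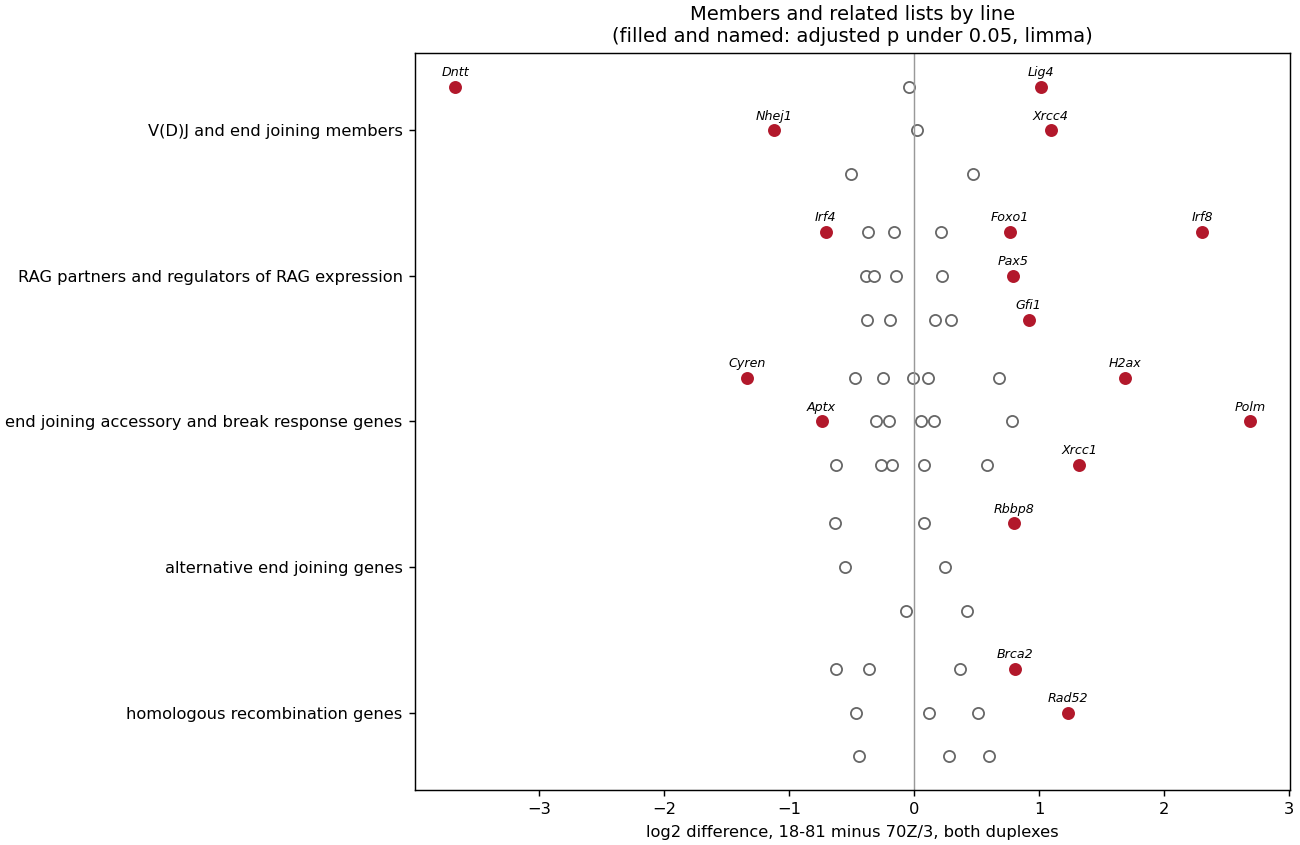
Log2 difference between '18-81' and 70Z/3, averaged over both duplexes (horizontal axis), of the 8 tested members and of the tested genes of the 4 lists (rows, spread vertically for legibility). Filled, named points passed an adjusted p of 0.05 in limma: Dntt at -3.67 lies farthest to the left and Polm at 2.68 farthest to the right.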

How the data were processed

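Total RNA of 8 samples was labelled with Cy3 and hybridised to 1 array each, per the labels. Per the file headers, the authors read each spot's intensity with Agilent Feature Extraction 10.7.3.1 and placed probes on mm9. Its processed intensity, deposited per array, had local background taken off and a spatial trend removed. The deposited series table, used as an alternative, holds linear intensity values normalized between arrays by steps not given in the sources used here. Column medians were 14.64 and 14.69 for '18-81' replicate 1 and 14.65 and 14.64 for its replicate 2 (miR-125b, then miR-Neg), and 14.64 and 14.65 for 70Z/3 replicate 1 and 14.68 and 14.71 for its replicate 2. The columns share a maximum of 650812, are not centred by gene, and correlated with the scanner values at r of 0.9974 to 1 on the log2 scale.

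Control spots and outlier spots (140 to 203 an array) were dropped, none was saturated, and repeat spots of a probe were averaged. Log2 values were taken relative to each array's 75th percentile. Where a gene had several probes that passed, the one with the highest mean stood for it. Gene names came from a RefSeq table, used for names only. All 8 arrays entered 1 limma 3.58.1 fit (R 4.3.3) with a mean for each of the 4 groups, tested two-sided with Benjamini-Hochberg adjustment over 18790 genes at 0.05. The script was tested on simulated data.

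The labels do not say that the samples of a group came from separate cultures, but the design text names 2 independent experiments. Same-numbered samples deviated together (r of 0.374 to 0.648 over 6 pairs of groups), so the replicate number was read as pairing the arrays. The reported fit has no term for this pairing. Fits with that number as a block were alternatives, beside quantile normalization, normexp with an offset of 50, other filters, an intensity trend, single probes and the removal of each array. All 8 arrays lie on 1 slide.

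The members and lists were chosen with earlier results of these data known. From each list at most 4 genes were named: the 2 with the smallest p between the lines and the 2 with the smallest p for miR-125b averaged over both lines. Other genes are marked as chosen after their values were seen. Some genes of these lists are not reported here.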

Additional observations from a re-analysis of the deposited data

Results flagged for a closer look

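Nhej1 was singled out because its replicates lay on opposite sides of miR-Neg in the lines: with miR-125b it was higher than with miR-Neg in both replicates of '18-81' (0.09 and 0.22) and lower in both of 70Z/3 (-0.06 and -1.06). The difference of the effects, '18-81' minus 70Z/3, was 0.71 ± 0.44 on the log2 scale, and limma's test of that difference did not pass (adjusted p 0.933).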

How the results depend on the processing

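Between the lines, 18 alternatives were run for each member: no called member changed direction in any of them, and Dntt and Xrcc4 kept their calls in all 18. The call of Lig4 was lost without a filter on dim probes (adjusted p 0.0613) and with either duplex alone, that of Nhej1 with the miR-125b arrays alone. Xrcc5 was also called after quantile normalization (0.0365) and in the series table (0.0311), and Xrcc6 with normexp (0.0445). The replicate block gave 9039 calls between the lines, against 5988 without it, and requiring signal on all 8 arrays gave 3536. Beside the Ku pair, the block changed no member's call. For miR-125b in 70Z/3, normexp and the block within each line called 1 gene each, and leaving out an array 0 to 2; leaving one out gave 0 to 9 calls in '18-81', 0 to 5 on average and 0 to 5 for the difference of effects.

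Uncalled differences near 0 changed sign, the cause of which was not tested. In 70Z/3, Xrcc6 became 0.17 with quantile normalization, 0.0050 with normexp and 0.19 in the series table. Between the lines, Dclre1c became -0.011 with normexp and -0.18 among miR-125b arrays, and Prkdc 0.16 among miR-Neg arrays. Leaving out an array in 70Z/3, Xrcc5 ranged from -0.13 to 0.19, Xrcc6 from -0.14 to 0.036, Dclre1c from -0.15 to 0.81, Xrcc4 from -0.19 to 0.37 and Lig4 from -0.55 to 0.32. In '18-81', the ranges were -0.59 to 0.89 for Dntt, -0.081 to 0.29 for Prkdc, -0.35 to 0.30 for Xrcc5, -0.12 to 0.37 for Xrcc6, -0.22 to 0.043 for Dclre1c, -0.19 to 0.30 for Xrcc4 and -0.25 to 0.41 for Lig4. Between the lines, Prkdc ranged from -0.13 to 0.051 and Dclre1c from -0.21 to 0.27. The dimness of probes limits Rag1, Rag2 and the fourth Dclre1c probe.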
